A study of Mus musculus with 10 samples.

Results

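Voltage-gated calcium channels, voltage-gated sodium channels and HCN channels were examined in the hippocampus of adult mice whose mothers had received estradiol during early pregnancy. The members were all non-control probes whose gene name in the files begins with Cacna, Cacnb, Hcn or Scn followed by the subunit's number or letter. This gave 74 probes for 35 genes, of 41174 probes for 27339 genes in all. The high estradiol group (HE, 5 arrays) was adult offspring of ICR dams, an outbred laboratory stock, that were given estradiol valerate in corn oil by mouth, 100 µg/kg each day, starting at E5.5 and ending at E11.5 of gestation. Estradiol valerate is an ester that the body converts to estradiol. The control group (NC, 5 arrays) was adult offspring of ICR dams given the same volume of corn oil over the same days. All 10 animals were labelled male and carried no engineered allele that the labels name. The labels give no litter, so that p-values measure only the spread between these animals.

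A voltage-gated calcium or sodium channel has 1 large pore-forming alpha subunit that senses voltage, with smaller auxiliary subunits that set how many channels reach the membrane and how they open and close. L-type calcium channels (Cav1) couple activity to gene expression, Cav2 channels trigger transmitter release at presynaptic terminals, and T-type channels (Cav3) open near rest and drive burst firing. Sodium channels start and carry the action potential, and HCN channels, opened by hyperpolarization and by cyclic nucleotides, carry a cation current that sets resting potential and dendritic integration in hippocampal pyramidal cells.

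Signals are log2 values of the processed intensity relative to the 75th percentile of the same array, which ranged from 898 to 1277 intensity units. A value of 0 therefore means a signal equal to that percentile, and signals are not compared between probes, since each probe has its own response. Probes were kept for the test where at least 3 of the 5 arrays of either group read them well above background. Of the 74 probes 68 entered, and 62 were well above background on all 10 arrays. Each gene took the value of its brightest entering probe, by mean over arrays, which left 31 of the 35 genes to test. The 4 genes not tested were Cacna1f, a retinal L-type pore subunit, and the sodium channel pore subunits Scn7a, Scn9a and Scn11a, known mainly from peripheral neurons or glia. Their probes were well above background on at most 1 HE array and at most 2 NC arrays.

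Of the 31 channel genes tested, 7 had an adjusted p under 0.05 by limma (called passing below), or 22.6%, against 20.4% of the 20070 genes tested on the arrays. The share of channel genes that passed was therefore near the background. Higher in HE were 4 of 31 (12.9%, against 6.49% of all genes), among them the calcium channel beta subunits Cacnb1 and Cacnb3 and the sodium channel pore subunit Scn1a. Lower in HE were 3 of 31 (9.68%, against 13.9% of all genes): the beta subunit Cacnb2, the alpha2delta subunit Cacna2d4 and the pacemaker channel Hcn4. The median log2 fold change over the 31 genes was 0.249, against -0.055 over all genes tested, with 21 positive and 10 negative values. The split moved with the processing and with single arrays. It was 7 higher and 2 lower under quantile normalization, and 10 higher and 5 lower with normexp background correction. It was 1 higher and 2 lower without NC 2, and up to 7 higher without NC 4. The share of all genes that passed moved too, to 44.3% with normexp, and is not given here for quantile normalization or single left-out arrays. All 5 HE arrays lay above all 5 NC arrays for 3 channel genes (Cacnb1, Cacnb3 and Scn1a), where 5.57% of all genes did so, and below them for 2 (Cacnb2 and Hcn4), where 11% of all genes did so.

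**Figure D1:**
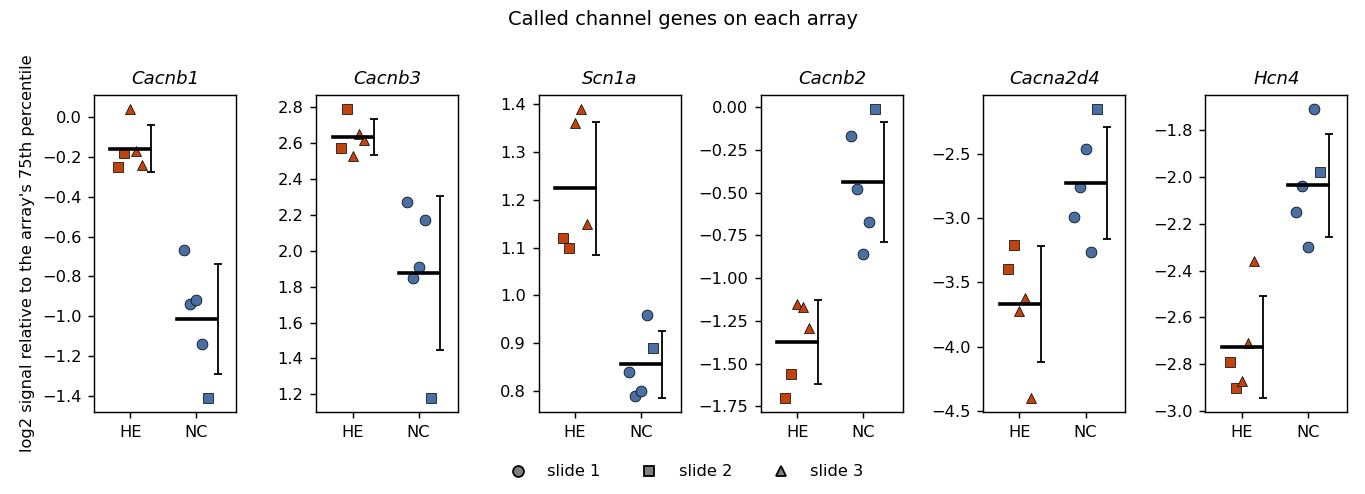
Log2 signal relative to the array's 75th percentile (y axis, own scale in each panel) of 6 channel genes that passed, with a point for each HE array (left) and NC array (right). Horizontal lines are group means, vertical bars are SD (n = 5 each), and the marker gives the slide; the groups do not overlap for Cacnb1, Cacnb3, Scn1a, Cacnb2 and Hcn4, and overlap for Cacna2d4.

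Other measured differences ran alongside the groups. The arrays lay on 3 slides: HE 3 to HE 5 on slide 3, HE 1, HE 2 and NC 5 on slide 2, and NC 1 to NC 4 on slide 1, so that only slide 2 holds both groups. Xist, transcribed from the inactive X of female cells, was high on HE 1 to HE 3 and on NC 1 to NC 4, or 7 of the 10 arrays labelled male, while Y-linked genes were high on HE 4, HE 5 and NC 5. Marker genes of neighbouring regions also differed. The sums of linear signal given for marker lists are set mainly by the brightest probes of each list. Of 16 thalamus and habenula markers tested 13 were lower in HE and 0 higher, with a summed linear signal of 24.5 to 55.1 times the 75th percentile in HE and 58.1 to 127 times in NC. Of 14 myelin markers 10 were lower and 0 higher (265 to 347 in HE and 463 to 592 in NC), and of 7 CA1 pyramidal cell markers 4 were higher and 0 lower (47.3 to 64.4 in HE and 18.5 to 40.3 in NC). None of the 10 dentate granule cell markers passed (7.45 to 9.50 in HE and 6.69 to 8.26 in NC). Every CA1 and dentate marker was well above background on at least 1 array in this tissue labelled hippocampus. Of other lists, 3 of 8 midbrain markers were lower (1.32 to 1.55 in HE and 1.51 to 47.4 in NC), as were 2 of 8 astrocyte markers and 1 of 4 sensory ganglion markers, and 0 of 9 striatal markers passed (61.7 to 454 in HE and 55.3 to 240 in NC). Of 7 skeletal muscle markers 1 was higher and 1 lower (1.55 to 2.46 in HE and 0.941 to 2.06 in NC), and Ckm was well above background on no array. In whole tissue, fewer cells of a type and less RNA per cell cannot be told apart. The part of these marker differences in the channel values below was not tested.

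The 4 calcium channel beta subunits are cytoplasmic proteins that bind the linker between the first and second repeats of the pore subunit, bring Cav1 and Cav2 channels to the membrane and tune their gating. In this subfamily 2 genes passed as higher and 1 as lower. Cacnb1, the isoform also used by skeletal muscle, was -0.25, -0.18, 0.04, -0.17 and -0.24 on the HE arrays, against -0.67, -0.94, -0.92, -1.14 and -1.41 on the NC arrays. Every HE array lay above every NC array. The mean was -0.16 ± 0.12 in HE and -1.02 ± 0.28 in NC (SD, n = 5 each), a log2 fold change of 0.86 ± 0.13 (SE), or 1.81-fold (limma adjusted p = 0.00720). Its single probe, shown because it crosses an intron in the files' alignment, spans chr11:97866579-97867011 (mm9, minus strand).
Cacnb1: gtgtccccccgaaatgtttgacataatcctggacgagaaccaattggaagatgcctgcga

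Cacnb3, a beta subunit of brain Cav2 and Cav1 channels, was 2.57, 2.79, 2.53, 2.65 and 2.62 in HE, against 2.27, 1.85, 1.91, 2.17 and 1.18 in NC. The groups did not overlap, and the NC arrays were the more spread (SD 0.10 in HE and 0.43 in NC). HE exceeded NC by 0.76 ± 0.19 on the log2 scale (SE, adjusted p = 0.0222, probe at chr15:98474610-98474669, mm9), and Cacnb3 did not pass without NC 2 (0.75, adjusted p = 0.0526). Cacnb4, the beta subunit mutated in the lethargic mouse, was read by 4 probes with log2 fold changes of 0.25 to 0.46, none of which passed.

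For Cacnb2, a beta subunit of heart and brain, the probe that represented the gene fell in HE. It was -1.70, -1.56, -1.15, -1.17 and -1.29 in HE, against -0.17, -0.48, -0.86, -0.67 and -0.01 in NC, without overlap, a log2 fold change of -0.94 ± 0.18 (SE, adjusted p = 0.0123). The other 2 Cacnb2 probes did not follow it. The probe at position 692 of the listed transcript gave 0.09 ± 0.22 and the probe at position 2321 gave 0.51 ± 0.19 (SE), and neither passed over all probes (adjusted p = 0.789 and 0.0725). Within an array, the probe at 692 minus the representative was -0.52 ± 0.27 in HE and -1.55 ± 0.46 in NC (SD, n = 5 each), a difference of 1.03. For the probe at 2321 the same quantity was 0.63 ± 0.33 in HE and -0.82 ± 0.44 in NC, a difference of 1.45. Both had the smallest p that an exact two-sided permutation test of 5 against 5 arrays allows (p = 0.00794, adjusted over 58 probe pairs 0.0307). The gene's mean over its 3 probes did not pass (log2 fold change -0.11, adjusted p = 0.633).

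The 2 Cacnb2 probes below are shown because their positions differ in kind. The representative, at chr2:14884906-14884965 (mm9, plus strand), lies inside the stretch that the other probe, at chr2:14882385-14885558, skips as an intron. It starts 2521 bases from the lower end and stops 593 bases from the upper end of that probe's span. The files list no RefSeq transcript for the representative, only an Ensembl one.
Cacnb2 representative: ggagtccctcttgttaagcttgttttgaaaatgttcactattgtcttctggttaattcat
Cacnb2 across the intron: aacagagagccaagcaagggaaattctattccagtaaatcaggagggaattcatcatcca
The value of -0.94 is thus that of RNA containing this stretch, and whether such RNA is an unspliced or an alternatively processed Cacnb2 transcript was not tested.

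The alpha2delta subunits are extracellular, membrane-anchored proteins that carry calcium channels to the cell surface, and 2 of them bind gabapentin. Of 4 genes, Cacna2d4, best known from retinal photoreceptors, fell. It was -3.40, -3.21, -3.72, -3.62 and -4.40 in HE, against -2.99, -2.76, -2.46, -3.26 and -2.15 in NC, and the groups overlapped by HE 2 and NC 4. The log2 fold change was -0.94 ± 0.26 (SE, adjusted p = 0.0313, probe at chr6:119251360-119251419, mm9). This probe, the only one of the gene, lists no RefSeq transcript. Cacna2d4 did not pass without any 1 of HE 1, HE 3, HE 4, HE 5, NC 2, NC 3 or NC 5. It passed in 13 of 26 alternatives. Its sign was always the same, but many of these fits reuse the same probe values. Cacna2d1 and Cacna2d2, the gabapentin-binding subunits, and Cacna2d3 did not pass by their representative probes, with log2 fold changes of 0.14, -0.01 and 0.63. The other Cacna2d1 probes differed from its representative. The probe at position 2885 was higher in HE by 0.56 ± 0.12 (SE, limma adjusted over all probes 0.0147). The probe at position 1795 of a different listed transcript gave -1.06 ± 0.42 (adjusted 0.0888).

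No calcium channel pore subunit passed among the 9 tested. Among L-type subunits the smallest p was that of Cacna1c, the main L-type pore subunit of the hippocampus. It was -1.72, -2.16, -1.46, -1.96 and -1.78 in HE, against -2.20, -2.61, -2.31, -1.88 and -2.61 in NC, with NC 4 inside the range of HE (log2 fold change 0.51 ± 0.17 SE, adjusted p = 0.0627). Cacna1d, the L-type subunit that opens at lower voltages, had 0.22, and Cacna1s, that of skeletal muscle, had -0.13.

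Among presynaptic Cav2 subunits the smallest p was that of Cacna1a, the P/Q-type pore subunit. It was -3.47, -3.17, -4.11, -3.63 and -3.50 in HE, against -2.37, -2.99, -3.57, -3.24 and -3.05 in NC, with overlapping groups (log2 fold change -0.53 ± 0.23 SE, adjusted p = 0.123). Its second probe, across an intron, gave 0.59 ± 0.29, the opposite sign. Cacna1b, the N-type subunit, had 0.29 and Cacna1e, the R-type subunit, had -0.02.

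Among T-type subunits the smallest p was that of Cacna1g, which is abundant in thalamic relay neurons. It was 1.03, 1.01, -0.08, 1.31 and 0.71 in HE, against 1.38, 0.94, 1.37, 1.59 and 1.76 in NC, and HE 3 lay furthest below (log2 fold change -0.61 ± 0.25 SE, adjusted p = 0.112). Cacna1h had 0.46 ± 0.22 (SE). Cacna1i, enriched in the thalamic reticular nucleus, had 0.48 ± 0.48 (SE), with the 5 HE arrays between -4.41 and -3.87, while NC 5 was at -2.56 and the other 4 NC arrays lay between -5.30 and -5.07. Without NC 5 Cacna1i was higher in HE by 1.0 on the log2 scale (adjusted p = 0.0108), whereas with slide as a block, where NC 5 is the only control on slide 2, its log2 fold change was -1.81 (adjusted p = 0.0269).

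**Figure D2:**
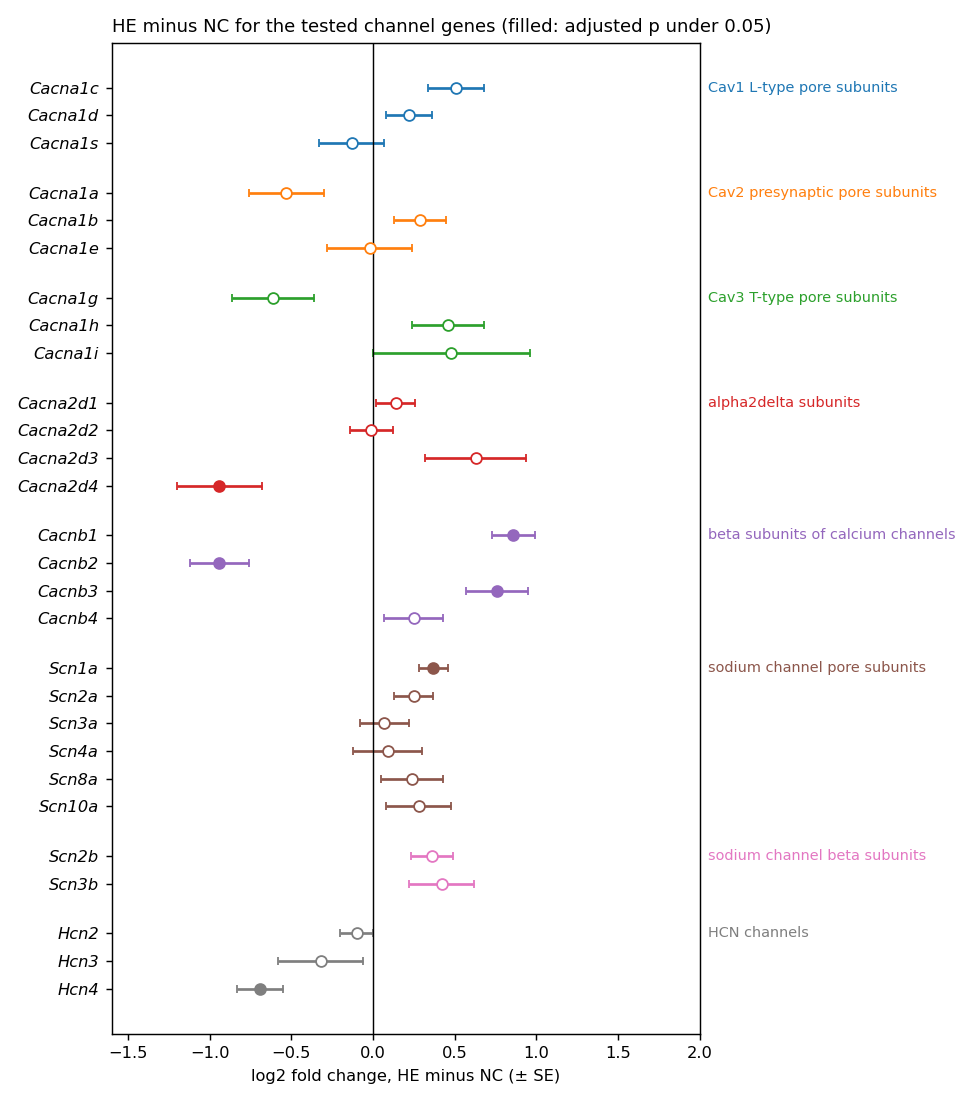
Log2 fold change, HE minus NC, of 28 of the channel genes tested (x axis) with its SE as a bar, grouped by subfamily from top to bottom; filled points had an adjusted p under 0.05 by limma. The 4 beta subunits of calcium channels span -0.94 to 0.86, while the sodium channel genes drawn lie above 0 (Scn3a, Scn4a and Scn10a fall below it with normexp background correction).

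By their representative probes all 10 sodium channel genes tested had a positive log2 fold change, the lowest 0.07 for Scn3a. Their median was 0.318, against -0.055 over all genes tested. The share of all genes with a positive value is not given here. Of the 10 sodium channel genes 2 passed (20%, against 20.4% of all genes). Some other entering probes were negative. The Scn3a probe at position 3257 of a different listed transcript gave -0.88 ± 0.19, and the Scn2a probe at position 191 gave -0.26 ± 0.14 (SE). The signs of Scn3a, Scn4a and Scn10a were negative with normexp background correction (-0.29, -0.62 and -1.01), and those of Scn3a and Scn4a also with slide as a block (-0.31 and -0.12). Scn1a encodes a pore subunit of fast-spiking interneurons and is the gene mutated in Dravet syndrome. It was 1.12, 1.10, 1.36, 1.39 and 1.15 in HE, against 0.84, 0.79, 0.80, 0.96 and 0.89 in NC. The groups did not overlap, although the step was small (log2 fold change 0.37 ± 0.09 SE, or 1.29-fold, adjusted p = 0.0211), and Scn1a did not pass without NC 2 (0.35, adjusted p = 0.0538). Of the 13 interneuron markers tested, 5 were higher in HE (Cnr1, Lamp5, Lhx6, Npy and Sst) and 1 was lower, Pvalb, the marker of fast-spiking cells (log2 fold change -0.75 ± 0.17 SE, adjusted p = 0.0193). The summed interneuron signal, set mainly by its brightest probes, was 123 to 191 in HE and 94.5 to 138 in NC. The median log2 level of the 13 markers was 1.58 to 2.27 in HE and 1.26 to 1.91 in NC. The part of these markers in the Scn1a value was not tested.

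The Scn1a probe and a probe of Scn3a, a pore subunit of the embryonic brain, shared a run of 29 bases, the only run of 16 bases or more among 2641 pairs of probes to different channel genes. RNA of either gene could therefore bind the other's probe in part, to an extent that was not tested. The log2 fold change of this Scn3a probe was 0.07 ± 0.15 (SE).

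Among the other pore subunits, Scn2a and Scn8a, the main subunits of excitatory axons, had log2 fold changes of 0.25 ± 0.12 and 0.24 ± 0.19 (SE). Neither passed.

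The sodium channel beta subunits are single-pass membrane proteins that also act as cell adhesion molecules. Scn2b and Scn3b had log2 fold changes of 0.36 ± 0.13 and 0.42 ± 0.20 (SE), and neither passed.

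HCN channels are tetramers of subunits that differ in speed and in sensitivity to cyclic AMP. Hcn4, the slow subunit of the cardiac pacemaker and of thalamic neurons, fell by its representative probe. It was -2.79, -2.90, -2.87, -2.71 and -2.36 in HE, against -2.15, -2.04, -2.30, -1.71 and -1.98 in NC, without overlap. The log2 fold change was -0.69 ± 0.14 (SE, or 0.620-fold, adjusted p = 0.0133), but the mean of its 2 probes gave -0.19 and did not pass (adjusted p = 0.251). Its second probe, at position 1782 of the transcript against 3432, was -4.94, -5.14, -4.89, -4.87 and -4.90 in HE, against -5.67, -4.94, -5.28, -5.26 and -5.13 in NC, with a log2 fold change of 0.31 ± 0.13 (adjusted over all probes 0.112). Within an array the difference between the probes separated the groups (difference 1.0, exact permutation p = 0.00794, adjusted 0.0307), but was -0.21 with normexp background correction. The 2 probes are shown because they give opposite signs for the same listed transcript, at chr9:58708397-58708456 for the representative and chr9:58705826-58705885 for the second, both on the plus strand of mm9.
Hcn4 representative: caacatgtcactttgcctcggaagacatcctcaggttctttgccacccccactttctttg
Hcn4 second: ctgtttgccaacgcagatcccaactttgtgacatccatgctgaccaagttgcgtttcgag

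Hcn2, a subunit found throughout the brain, had a log2 fold change of -0.10 ± 0.10 (SE), and Hcn3 had -0.32 ± 0.26. Neither passed.

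Probes of the same channel gene did not always give the same value. Positions count along the transcript listed for each probe. A probe without a RefSeq transcript is counted along a different transcript from the RefSeq-listed probes of its gene. Of 21 genes with at least 2 entering probes, 10 had probes of both signs, and of 68 entering probes 13 passed over all probes (19.1%, against 23.2% of the 30984 probes), 9 higher (against 7.71% of all probes) and 4 lower (against 15.5%), in 11 genes. In 15 of the 58 pairs of probes of the same gene, the within-array difference reached the smallest exact permutation p of 0.00794 (adjusted 0.0307). How often probes of the other genes on the arrays differ in sign or in this way was not tested. In Cacna2d1 the probe at position 1795 minus that at 2885 averaged -5.82 ± 0.62 in HE and -4.20 ± 0.69 in NC, a difference of -1.62. The probe at 1795 lists no RefSeq transcript and was well above background on only 4 of the 5 HE arrays, so that the size of this difference is uncertain. In Scn3a the probe at position 3257, which also lists none, was -0.88 ± 0.19 (adjusted over all probes 0.0145), while the probe at 9000, well above background on 4 of 5 NC arrays, was 0.65 ± 0.26. For Cacna1e the probe at 8946, also well above background on 4 of 5 NC arrays, gave 1.10 ± 0.33 and that at 12000 gave -0.02 ± 0.26, and the difference between these probes, 1.12, was -0.02 with normexp background correction. By contrast the 3 probes of Scn3b lay between 0.35 and 0.42, and no pair of them passed.

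**Figure D3:**
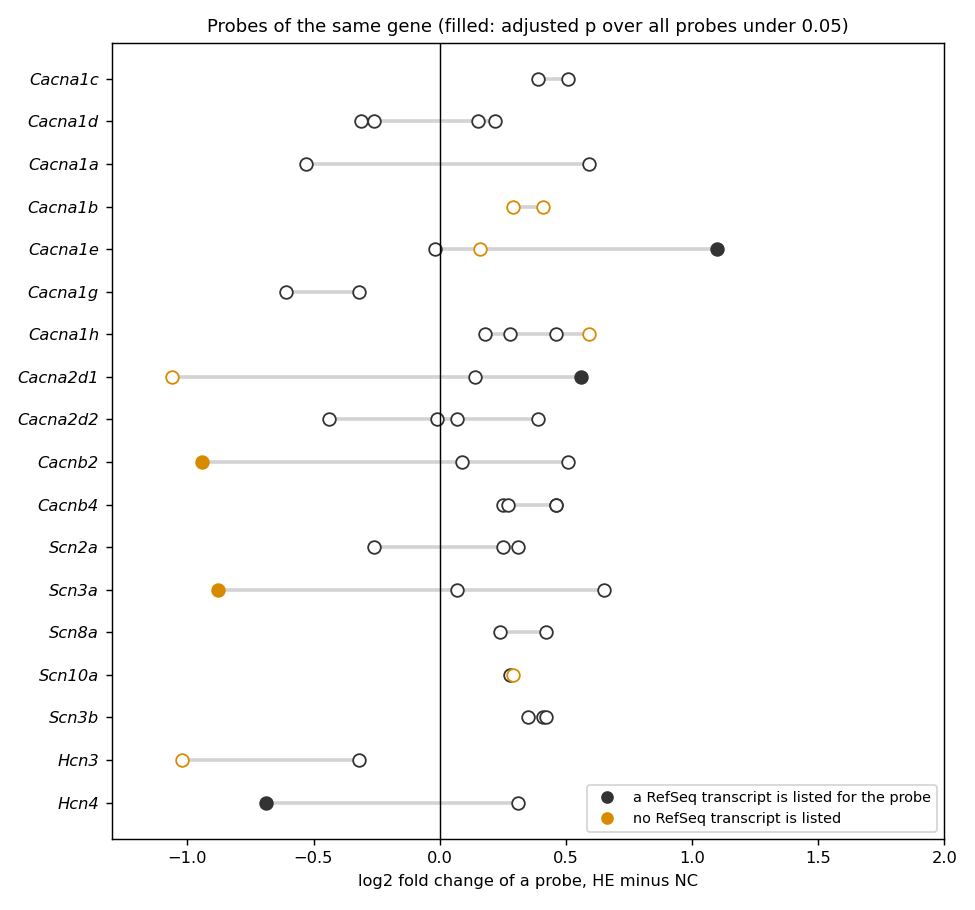
Log2 fold change, HE minus NC (x axis), of every entering probe of 18 genes with at least 2 such probes; the grey line joins the lowest and highest probe of a gene, filled points passed the limma test over all probes, and orange marks probes for which the files list no RefSeq transcript. Probes of Cacnb2, Scn3a, Cacna2d1 and Hcn4 lie on both sides of 0 (the Hcn4 pair turns round with normexp background correction).

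Among genes that work with these channels, 7 of 42 passed (16.7%, against 20.4% of all genes), 6 higher and 1 lower, where 6.49% and 13.9% of all genes were. The median log2 fold change was 0.118, against -0.055 over all genes. The gamma subunit family, whose TARP members carry AMPA receptors to synapses, had 2 of 8 higher. Cacng3 was 0.79, 0.62, 1.43, 0.63 and 0.86 in HE, against -0.12, -0.59, -0.50, -0.58 and -1.44 in NC, without overlap (log2 fold change 1.51 ± 0.24 SE, adjusted p = 0.00783). Cacng8, the TARP best known from the hippocampus, had 0.81 ± 0.23 (adjusted p = 0.0349), but -0.34 with normexp background correction and -0.12 when that was centred on the median gene.

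Of 13 calcium channel partners and inhibitors 4 were higher and 0 lower, where 6.49% of all genes were higher and 13.9% lower. Cabp1, a calmodulin relative that alters the inactivation of Cav1 and Cav2 channels, was 1.42, 1.61, 0.97, 1.67 and 1.19 in HE, against 0.67, 0.17, 0.36, 0.31 and -0.60 in NC, without overlap (log2 fold change 1.19 ± 0.23 SE, adjusted p = 0.0124). Rimbp2, an active zone scaffold that tethers calcium channels, had 0.63 ± 0.17, and Stac2, an adaptor of L-type channels, had 0.91 ± 0.25 (adjusted p = 0.0327 and 0.0329). Rimbp2 did not pass without any 1 of HE 1, HE 4, HE 5, NC 2, NC 3 or NC 5 (0.50 to 0.67), nor Stac2 without any 1 of HE 1, HE 2, HE 4, NC 2 or NC 5 (0.78 to 0.88) or with normexp background correction (0.65), and neither passed with slide as a block.

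None of the 13 sodium channel anchors and FGF partners passed, and the smallest p was that of Cntn2, an axonal adhesion molecule (log2 fold change -0.32 ± 0.11 SE, adjusted p = 0.0588). Of 8 HCN partners and genes of the sodium leak channel complex, the probe that represented Unc80, a large subunit of the NALCN complex, fell. It was -0.39, 0.18, -0.97, 0.22 and 0.20 in HE, against 1.70, 1.19, 0.39, 0.89 and 1.24 in NC (log2 fold change -1.23 ± 0.29 SE, adjusted p = 0.0199), and the mean of the Unc80 probes gave -0.56. Unc80 did not pass with slide as a block (adjusted p = 0.235) or without NC 1, NC 2 and NC 4 (adjusted p = 0.143). Nalcn, the pore of that complex, and Unc79 each had 0.10.

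**Figure D4:**
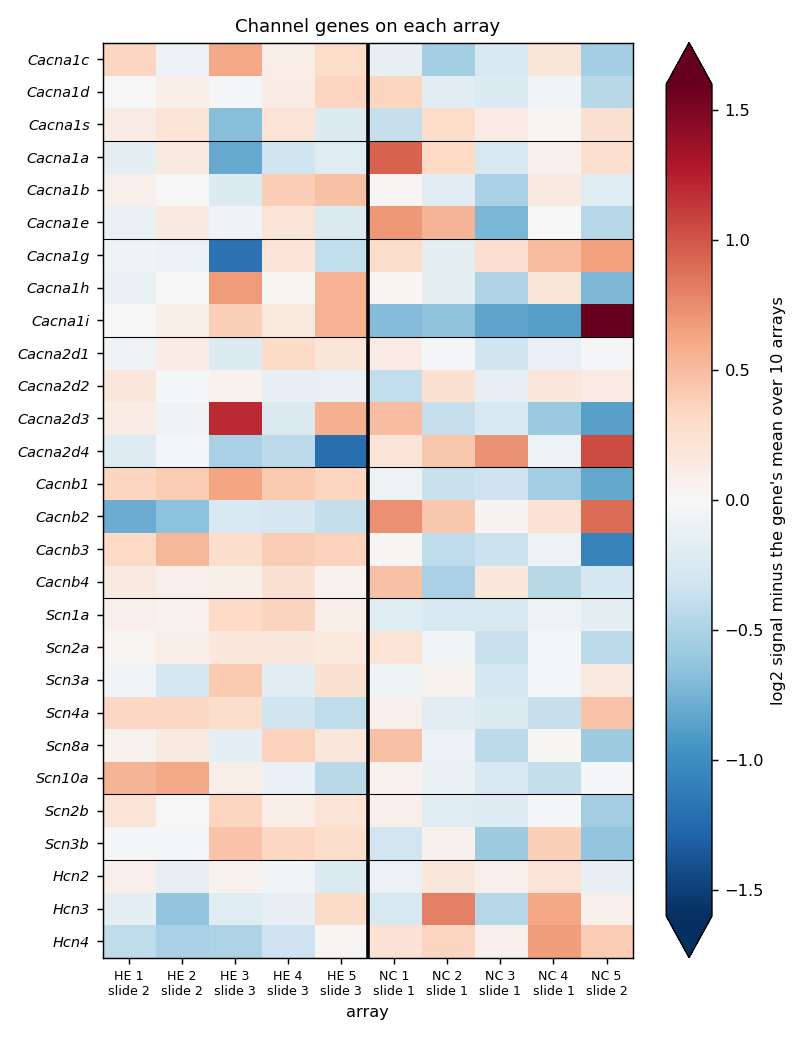
Log2 signal of 28 of the channel genes tested (rows, in subfamily order) minus the gene's mean over the 10 arrays (colour, red above and blue below), with the 5 HE arrays left of the line and the 5 NC arrays right of it, each with its slide. Cacnb1 is above its mean on all HE arrays and below it on all NC arrays, Cacnb2 is the reverse, and NC 5 stands out for Cacna1i.

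On slide 2, the only one with both groups, the mean of HE 1 and HE 2 minus NC 5 rests on 1 control array. Its sign carries no further information for genes whose groups do not overlap, since the same arrays fix it. It was 1.20 for Cacnb1, 1.5 for Cacnb3 and 0.22 for Scn1a, and -1.62 for Cacnb2, -1.15 for Cacna2d4 and -0.86 for Hcn4. Xist was high on HE 1 and HE 2 and Y-linked genes were high on NC 5, so that group and the sex-linked pattern cannot be told apart on this slide. A fit with slide as a block takes its group difference from this slide alone. Its log2 fold changes are therefore those same values, and rest on the same 1 control array. NC 5 was the lowest control for Cacnb1 and Cacnb3 (-1.41 and 1.18) and the highest for Cacnb2 and Cacna1i (-0.01 and -2.56). The share of channel genes that passed in this fit therefore cannot be read apart from that 1 array. With slide as a block 4 of 31 channel genes passed, against 1.02% of all genes: Cacnb1 and Cacnb3 were higher, and Cacnb2 and Cacna1i were lower, while Scn1a, Cacna2d4 and Hcn4 did not pass (adjusted p = 0.426, 0.143 and 0.133). Among only the 7 Xist-high arrays, where no slide holds both groups, 0 of 31 passed by limma, against 0.384% of all genes. Liver transcripts were read on some control arrays: the summed signal of 7 liver markers was 0.0195 to 0.0906 in HE, against 4.21, 4.12 and 2.75 on NC 1, NC 2 and NC 4 and 0.033 and 0.335 on NC 3 and NC 5. Without NC 1, NC 2 and NC 4, 4 channel genes were higher (Cacnb1, Cacnb3, Scn2a and Scn3b) and 1 lower (Cacna2d4), against 9.58% of all genes called. With normexp background correction 10 were higher and 5 lower, against 44.3% of all genes.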

How the data were processed

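Total RNA of hippocampus, 1 array per animal, was labelled with Cy3 for 1-colour Agilent arrays (per the labels' protocols). The submitters' processing notes name Agilent Feature Extraction 10.7. The deposited intensity is spot brightness on a linear scale, from which, per the file headers, background was subtracted and a trend across the array removed, with surrogates near background. The authors' deposited value table holds log2 values whose making is not given in the sources used here. Its column medians were 7.0291 to 7.0292, and its columns followed quantile-normalized log2 processed signals with slopes of 1.002 to 1.003, so that scale and direction are known and no centring was seen.

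From these files, log2 processed signals were scaled to the 75th percentile of non-control probes on the same array. Outlier spots, 68 to 129 per array, were left out, and 0 were saturated. The test of HE against NC used limma 3.58.1 (R 4.3.3, lmFit and eBayes, two-sided, without covariates), adjusted by Benjamini-Hochberg over 20070 genes, or over 30984 probes where stated, at 0.05. The fit was tested on simulated data with independent noise and no slide or sex-linked structure. It recovered 5 of 67 planted log2 changes of 0.5, 41 of 67 of 1 and 64 of 66 of 2. Far fewer genes were changed there than passed here, so these shares need not hold for the real data. A gene that did not pass may still have changed. Probe pairs were compared by exact permutation over arrays (SciPy 1.17.1). Probes were named through RefSeq GRCm38.p6 symbols: 27668 by accession, 93 by another accession, 5991 by symbol or synonym, and 7422 kept the files' name. Positions are the files' (mm9), and exon and UTR annotation on mm9 was not used here. Members and lists were chosen with earlier results of these data known. The genes given per array are those that passed and the smallest p of a subfamily with none (not all are reported here). The 26 alternatives covered slide, replicate number, Xist pattern, background correction, normalization, filter, joining of probes, prior and left-out arrays. No 2 arrays of a group were duplicates (SD of their log2 difference 0.444 to 0.722). The number of arrays limits the precision.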

Additional observations from a re-analysis of the deposited data

Results flagged for a closer look

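In 78 groups of 5 arrays, the gap between the highest or lowest array and its neighbour was set against the group's range, and 2 exceeded Dixon's critical value of 0.71. Chance gives about 1 in 20 such groups. For Cacna1i, NC 5 was at -2.56 while the other 4 NC arrays lay between -5.30 and -5.07, a gap of 0.917 of the range. For Cacnb1, HE 3 was at 0.04 while the other 4 HE arrays lay between -0.25 and -0.17, a gap of 0.745 of the range.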

How the results depend on the processing

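Each of 6 channel genes that passed kept its sign under all 26 alternatives. They passed in 24 (Cacnb1), 23 (Cacnb3), 22 (Cacnb2), 21 (Hcn4), 21 (Scn1a) and 13 (Cacna2d4) of them. The groups do not overlap for Cacnb1, Cacnb3, Cacnb2, Hcn4 and Scn1a, so leaving out arrays or blocking on slide cannot turn their signs. Kept signs under those alternatives carry no further information. The same holds for all 6 genes where the same probe values were fitted again, as with the trend and robust prior or the replicate block. Fitting every probe on its own counted only the representative probe here. The other Cacnb2 probes gave 0.09 and 0.51 and the second Hcn4 probe 0.31, the opposite sign. Channel genes higher in HE, 4 here, numbered 7 under quantile normalization and in the value table, 10 under normexp, 14 under normexp centred on the median gene, 2 with slide as a fixed block, and 0 on slide 2 alone and on the 7 arrays with high Xist. Channel genes lower in HE, 3 here, numbered 5 under normexp, 1 with the mean of probes and without NC 1, NC 2 and NC 4, and 0 on slide 2 alone and on the 7 arrays. The share of all genes that passed, 20.4% in the main fit, also moved. It was 44.3% under normexp, 1.02% with slide as a block, 0.384% on the 7 arrays and 9.58% without NC 1, NC 2 and NC 4. For the other settings it is not given here. Normexp shifted the median of all genes to -0.291 and that of the channel genes to 0.068. Leaving out 1 array gave 1 (without NC 2) to 7 (without NC 4) higher, 2 to 3 lower, and a median of 0.192 to 0.332. Partner genes higher, 6 here, numbered 15 under centred normexp, 2 with slide as a block, and 0 on slide 2 and on the 7 arrays. Partner genes lower, 1 here, numbered 2 with the trend, mean of probes, quantile, value table and random block, 5 under normexp, 3 when centred, and 0 with slide as a block, on slide 2, on the 7 arrays and without NC 1, NC 2 and NC 4. Their median was 0.291 under centred normexp. Leaving out 1 array gave 2 to 7 higher and 1 to 2 lower, with a median of 0.112 to 0.181.

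Signs reversed for genes that had not passed, and for Cacng8. With the mean of probes Cacna1a was 0.03, Cacna1d -0.05, Cacna1e 0.41, Cacna2d1 -0.12, Cacna2d2 0.00 and Scn3a -0.05. Under normexp Cacna1c was -0.08, Cacna1d -0.14, Cacna1i -1.02, Cacna2d2 0.05, Cacng8 -0.34, Hcn2 0.07, Scn10a -1.01, Scn3a -0.29 and Scn4a -0.62. When centred, Cacna1i was -0.80, Cacna2d2 0.27, Cacng8 -0.12, Cntn2 0.12, Hcn2 0.29, Scn10a -0.79, Scn3a -0.07 and Scn4a -0.40. With slide as a block and on slide 2 alone, Cacna1e was 0.48, Cacna1i -1.81, Hcn2 0.10, Scn3a -0.31 and Scn4a -0.12. Without NC 1, NC 2 and NC 4, Cacna1e was 0.58, Cacna1i -0.28, Hcn3 0.03 and Scn4a -0.07. Cacna1e was 0.03 with the Xist covariate and 0.14 under quantile normalization and in the value table, and Cacna2d2 was 0.10 on the 7 arrays. Leaving out 1 array, Cacna1e ran from -0.20 to 0.15, Cacna1s from -0.24 to 0.02, Cacna2d2 from -0.11 to 0.05 and Scn3a from -0.03 to 0.15. Under normexp 3 probe pairs reversed: Cacna1e 8946 minus 12000 (-0.02), Hcn4 1782 minus 3432 (-0.21) and Scn3a 5163 minus 9000 (0.67). The causes were not tested. Same-numbered arrays showed little likeness (correlations of their deviations -0.077 to 0.127). For numbers 3 and 4 the NC array most like the HE array was nevertheless the same-numbered one. These correlations cannot exclude that the replicate numbers pair the samples. With the replicate block 4 channel genes were higher and 2 lower.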
